A study of Mus musculus with 6 samples.

Results

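Nr2f1 (ENSMUSG00000069171) and Nr2f2 (ENSMUSG00000030551) encode the orphan nuclear receptors COUP-TFI and COUP-TFII, and they were found by symbol as 2 of the 32285 genes counted. Their RNA was described in single cells of the cardiogenic region, microdissected at E10.5 (embryonic day) from wild-type embryos of the C57BL/6 mouse strain. The labels list 3 samples from dams given vehicle, with normal blood glucose, and 3 from dams made hyperglycemic with streptozotocin, a toxin of the pancreatic beta cell, all mated to males with normal blood glucose. The number of embryos behind each sample and their sex are not stated in the labels. All cells stand in 1 matrix, in which a number from 1 to 6 at the end of each cell barcode tells 6 libraries apart, and no file used here pairs that number with a sample. Streptozotocin was therefore not compared with vehicle, and the libraries are given below without a group. The matrix was treated as 1 sample and no test was made, also not of classes over the 6 libraries. Each interval covers counting error only, and the number of libraries with a direction is given as a description.

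Orphan nuclear receptors of the NR2F family bind DNA as dimers at repeats of the nuclear receptor half-site and often act as repressors. In background knowledge from mouse genetics, COUP-TFII is needed for atrial identity of heart muscle and for venous identity of endothelium, where it opposes Notch signalling. COUP-TFI is best known from the brain, the inner ear and the neural crest that builds the face. Both are widely described as targets of retinoic acid, and COUP-TFII also as a mesenchymal target of Hedgehog signals from the gut epithelium.

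Both genes lie on the minus strand, and each starts inside the overlap with a long non-coding RNA gene on the plus strand. In GENCODE M21 on GRCm38, Nr2f2 spans chromosome 7 from 70351944 to 70366735 and Nr2f1 spans chromosome 13 from 78188973 to 78199757, and the principal transcript of each has 3 exons. B130024G19Rik (chromosome 7, 70364910 to 70489972) overlaps the first 1826 bases of Nr2f2, and A830082K12Rik (chromosome 13, 78198017 to 78279391) overlaps the first 1741 bases of Nr2f1. The 2 start windows of the Nr2f2 locus are shown because the RNAs that leave them in opposite directions had similar patterns over the cell classes, as given further on. Both use RefSeq starts, which differ from the GENCODE gene ends given above. They are the 250 bases before the start of Nr2f2 (GRCm38.p6, chr7:70366747-70366996, minus strand) and the window from 250 bases before to 50 bases after the RefSeq start of B130024G19Rik (chr7:70365133-70365432, plus strand). Capitals mark matches to the CCAAT box, the only one of 6 searched motifs found in these windows.
Nr2f2 upstream: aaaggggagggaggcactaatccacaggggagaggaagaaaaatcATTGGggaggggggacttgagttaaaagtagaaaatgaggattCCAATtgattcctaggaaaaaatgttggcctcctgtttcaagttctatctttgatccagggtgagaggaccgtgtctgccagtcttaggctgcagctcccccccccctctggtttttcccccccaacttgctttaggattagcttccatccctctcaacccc
B130024G19Rik start: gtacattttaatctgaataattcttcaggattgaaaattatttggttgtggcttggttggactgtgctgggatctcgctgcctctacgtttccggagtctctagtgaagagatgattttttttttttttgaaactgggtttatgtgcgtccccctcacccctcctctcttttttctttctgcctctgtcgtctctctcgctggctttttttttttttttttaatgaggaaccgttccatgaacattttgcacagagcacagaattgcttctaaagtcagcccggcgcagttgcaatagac

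The start windows of the 2 receptors differed in base composition. The 300-base window of Nr2f2 held 49.7% G and C with 2 CpG pairs, and 14.1% of the 32851 RefSeq mouse windows had fewer CpG pairs. Of the 2 annotated starts of Nr2f1, the upstream one held 68% G and C with 23 CpG pairs, more than in 78.5% of windows, and the downstream one held 43% with 4 CpG pairs. The motifs, searched on both strands, were AGGTCA (nuclear receptor half-site, in 16.3% of all windows), AGGTGT (T-box core, 13.7%), TGGGAA (RBPJ core, 25.6%), GACCACCCA (GLI site, 0.253%), CCAAT (37.4%) and GGGCGG (GC box, 35.7%). CCAAT matched 2 times in the window of Nr2f2, and GGGCGG matched 1 time in the upstream window of Nr2f1. No other motif matched at either gene, which says only that these letters are not in these windows. The 2 genes are near relatives, yet of the 30-base words of the last 1000 bases of each principal transcript, where this 3′ assay reads, 0 occur in the other gene's transcripts.

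Of 53362 barcodes, 35962 were kept as cells (4903 to 7136 per library), each having 2500 or more detected genes and no more than 10% of its counts from mitochondrial genes. Their counts are of unique molecular identifiers (UMIs), each marking 1 captured RNA molecule, with a median of 30533 to 35634 per cell over the libraries. Library 1 stood apart, with Xist at 383 CPM (counts per 1000000 UMIs) and Ddx3y at 0.0908, against at most 0.342 for Xist and at least 33.8 for Ddx3y in the other 5. Of the retained cells, 2890 (8.04%) had a barcode sequence that also occurs in another library, most of them in libraries 4 to 6. Cells were placed in 32 classes by detected marker genes, and 8841 cells passed no marker list. Another 1100 passed lists of more than 1 broad cell type, or tied between lists, and were set aside. In 79 pairings of a class with a check gene outside its own list, some of them markers of another class, 62 had a level in the class of at least 2-fold that in all other cells. Edn1, the only check gene of second arch-like crest, did not (0.249 against 13.6 CPM). Nor did Barx1 in foregut mesenchyme-like cells (30.1 against 66.4 CPM), where Nkx6-1 passed. Tbx3 fell short in sinus venosus-like cells (27.3 against 21.6 CPM), where Cpne5 passed. So did Crabp2 in outflow-like cells, where Bmp4 passed, and Gata4 and Hoxb1 in posterior second heart field-like mesoderm, where Aldh1a2 passed. Heart muscle was clear, with the cardiac troponin gene Tnnt2 at 3842 CPM in cardiomyocyte-like cells against 65.6 elsewhere, but most cells were of other types. Erythroid-like cells, in which neither receptor has a known role, gave the background: 1.59 CPM of Nr2f1 (4.44% of cells with a UMI) and 2.22 CPM of Nr2f2 (4.73%) at a median of 63979 UMIs per cell.

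Levels of both genes ranged over more than 2 orders of magnitude, and the classes at the top were not the same for the pair. Nr2f2 was highest in foregut mesenchyme-like cells, at 536 CPM (95% counting interval 528 to 545), followed by 3 endoderm-like classes at 402 to 436 CPM and posterior second heart field-like mesoderm at 387 CPM. Nr2f1 was highest in proximal second arch-like crest mesenchyme, at 527 CPM (518 to 536), followed by maxillary-like crest at 326 CPM and intermediate second arch-like crest at 324 CPM. The first class stood above the next in 4 of 6 libraries for Nr2f2 and in 4 of 5 for Nr2f1, counting libraries with at least 10 cells of both classes. Neighbours lower in these orders were often closer than their libraries, such as maxillary-like and intermediate second arch-like crest, whose order for Nr2f1 held in 2 of 5 libraries. Both genes were lowest in erythroid-like, myeloid-like and ventricular-like cells. Over the 32 classes the Pearson correlation of log2(CPM + 1) between the genes was 0.565, over points that share libraries.

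**Figure D1:**
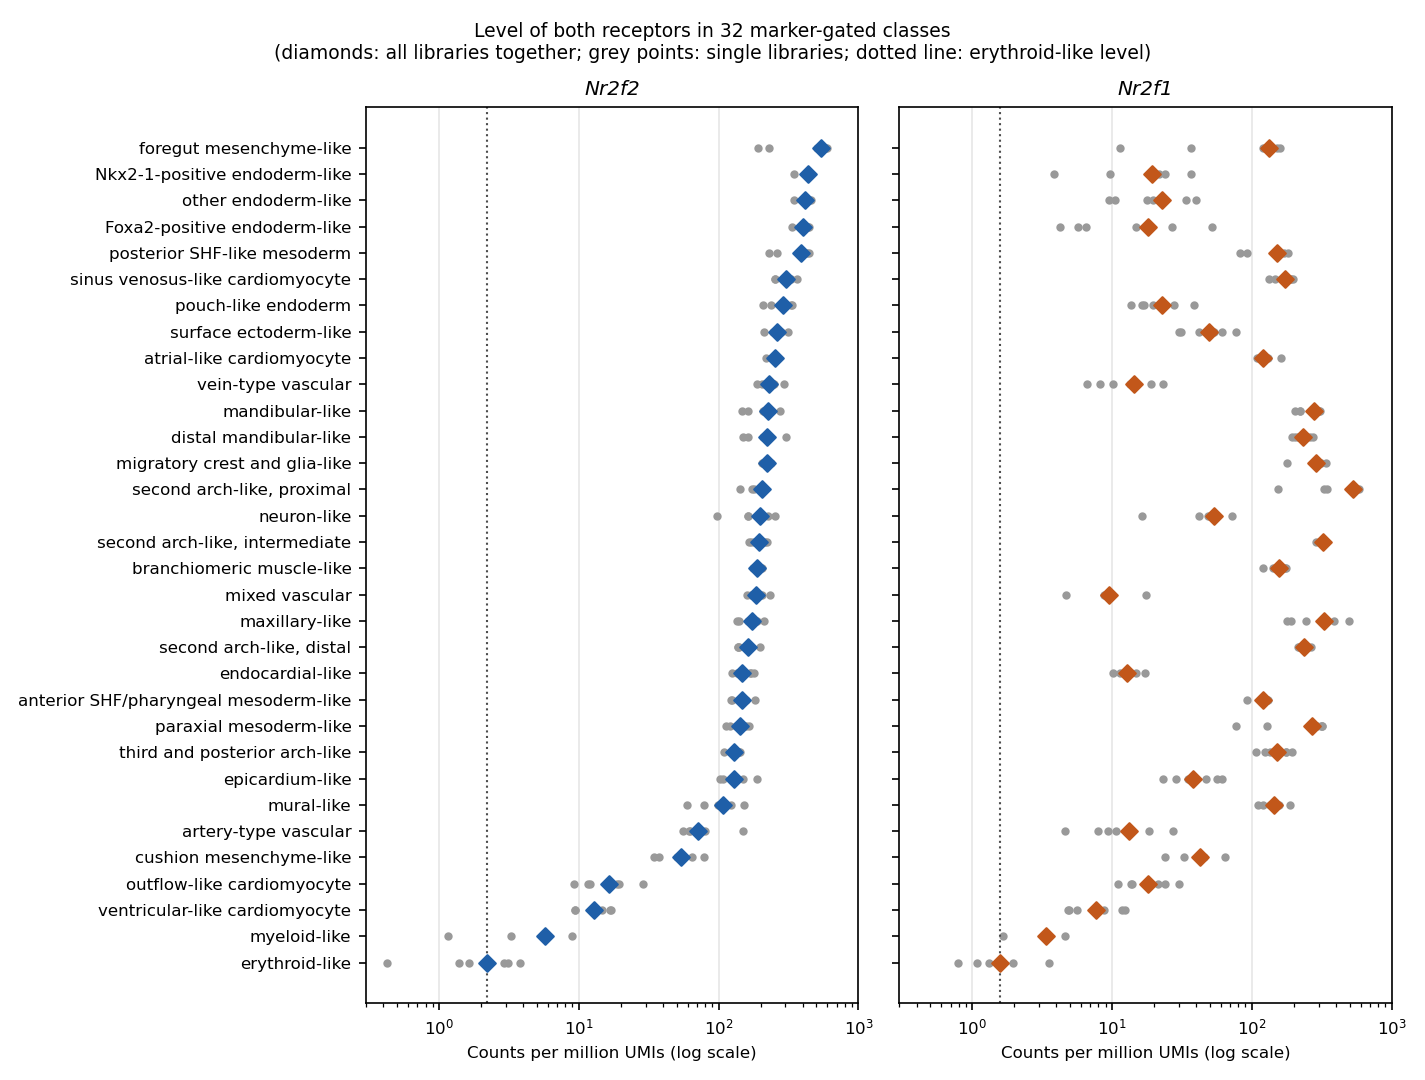
Level of Nr2f2 (left) and Nr2f1 (right) in CPM on a log axis, by cell class in the order of Nr2f2. Diamonds pool all libraries, grey points are single libraries with at least 10 cells of the class (a myeloid-like one at 0 is not drawn), and the dotted line is the erythroid-like level. Nr2f2 is under 50 CPM only in the ventricular-like, outflow-like and blood classes, whereas Nr2f1 is low in the endoderm-like and endothelium-like classes.

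Among the cardiomyocyte-like cells that could be placed, 2 classes were high and 2 were low for both receptors. In atrial-like cardiomyocytes (463 cells) Nr2f2 stood at 253 CPM, with 260, 262, 218, 250.2, 248 and 251 CPM in libraries 1 to 6. In ventricular-like cardiomyocytes (1174 cells) it stood at 12.8 CPM, with 9.42, 9.36, 12.6, 14.7, 16.7 and 16.9 CPM. All 6 atrial-like values were above all 6 ventricular-like values, and the ratio was 19.8 (18.3 to 21.3; 14.8 to 28 in single libraries). Nr2f1 followed the same division. It stood at 120.4 CPM in atrial-like cells, with 108, 116, 162, 127, 115 and 130.0 CPM, and at 7.71 CPM in ventricular-like cells, with 4.93, 4.82, 5.66, 8.73, 12.4 and 11.7 CPM. The groups again did not overlap, and the ratio was 15.6 (14.2 to 17.2; 9.27 to 28.6 in single libraries). The share of all genes whose libraries separate in this way is not given here. A level at least 2-fold higher in atrial-like cells was found for both receptors and for 2.75% of the 8340 genes with at least 10 CPM in either class. A lower level by 2-fold was found for 2% and either for 4.75%. Only 14 of these genes had a higher ratio than Nr2f2, and 16 had a higher ratio than Nr2f1. Nr2f2 reached 10 CPM in both classes, but Nr2f1 did so in atrial-like cells alone, so its direction among these genes was bound to be the atrial one.

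The difference lay in the number of positive cells as well as in their counts. A Nr2f2 UMI was seen in 97.6% of atrial-like and 24.2% of ventricular-like cells, at medians of 44113 and 53034 UMIs per cell. With every cell thinned to 5000 UMIs, the shares were 68.7% and 6.73%, against 0.788% in erythroid-like cells. For Nr2f1 the shares were 91.6% and 21.8%, and 39.96% and 4.003% after thinning, against 0.716% in erythroid-like cells. The few counts of ventricular-like cells were concentrated: the 5% of cells with the most (59 cells) held 61.7% of the Nr2f2 UMIs and 57.2% of the Nr2f1 UMIs, whereas in atrial-like cells the top 5% held 13.1% and 16.9%. Both receptors fell in steps with the number of ventricular markers (Myl2, Irx4, Hey2 and Mpped2) detected in a cardiomyocyte-like cell. Nr2f2 was at 311, 235, 121, 26.4 and 8.45 CPM with 0, 1, 2, 3 and 4 markers, and Nr2f1 at 158, 112, 62.7, 12.1 and 6.15 CPM. Cells with more of these markers also had more UMIs, with a median of 30289 at 0 markers and 58465 at 4.

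**Figure D2:**
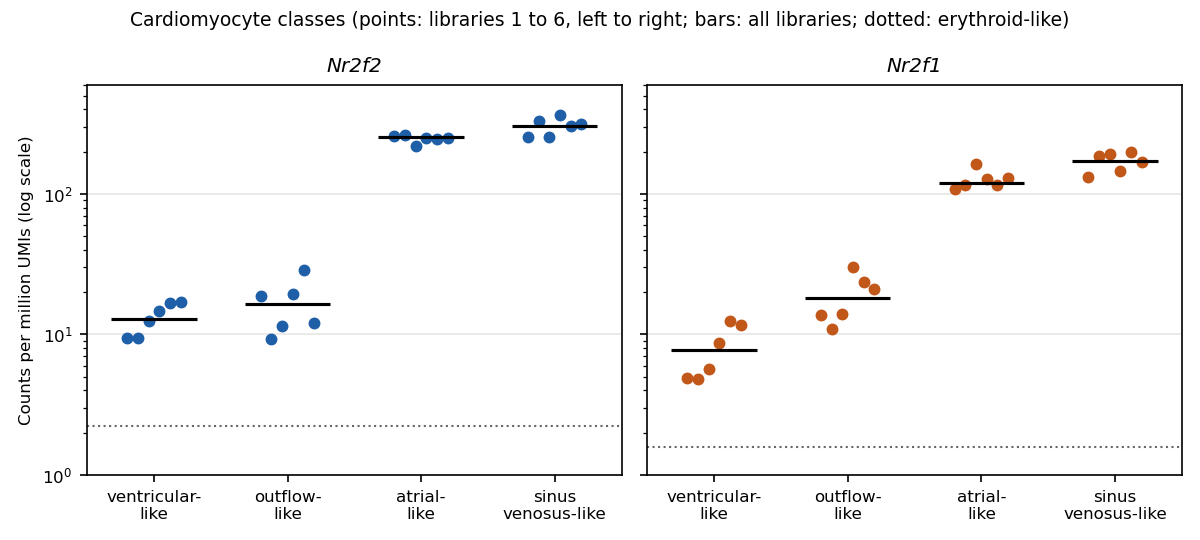
Nr2f2 (left) and Nr2f1 (right) in 4 cardiomyocyte-like classes, in CPM on a log axis. Points are libraries 1 to 6 from left to right, bars pool all libraries and the dotted line is the erythroid-like level. Ventricular-like and outflow-like values reach at most 29.95 CPM in any library, and atrial-like and sinus venosus-like values lie above 100 CPM.

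The outflow-like class lay with the ventricular-like one and the sinus venosus-like class with the atrial-like one, while 537 of the 3075 cardiomyocyte-like cells that were placed in none of the 4 classes had pooled levels in between. In those cells Nr2f1 was at 74.7 CPM (60.5 to 93.2 over libraries) and Nr2f2 at 188 CPM (165 to 270, where atrial-like cells had 218 to 262). Outflow-like cardiomyocytes (445 cells, marked by Tdgf1, Sema3c, Rspo3 and Isl1) had 16.3 CPM of Nr2f2, between 9.30 and 28.6 over the libraries, and 18.2 CPM of Nr2f1, between 11.01 and 29.95. Sinus venosus-like cardiomyocytes (456 cells, marked by Shox2, Hcn4, Vsnl1 and Tbx18), the inflow muscle that holds the future pacemaker, had the highest levels in heart muscle. Nr2f2 was at 302 CPM there, between 253 and 363, and Nr2f1 at 172 CPM, between 132 and 198. Relative to atrial-like cells, Nr2f1 was 1.43 times as high (1.35 to 1.51; higher in 6 of 6 libraries) and Nr2f2 1.19 times (1.15 to 1.24; 5 of 6), so neither passed 2-fold. Of 8854 genes, 7.49% were at least 2-fold higher, 2.08% lower and 9.57% either, and their median ratio was 0.19 on the log2 scale.

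Lists of chamber genes were read in the same comparison, as a description. A gene was counted where it reached 10 CPM in either class, so one that reached it in a single class was bound to be higher there. Of 9 atrial genes with enough counts, 8 were at least 2-fold higher in atrial-like cells, including the potassium channel gene Kcnj3 (64.4 against 26.7 CPM) and the atrial natriuretic peptide gene Nppa (1814 against 785 CPM, higher in 5 of 6 libraries), neither of which chose the cells. Of 9 ventricular genes, 8 were at least 2-fold lower, including the slow myosin gene Myh7 (44.3 against 1169 CPM) and the calcium pump regulator Pln (26.3 against 338 CPM). Marker lists held 5 of the 9 atrial and 4 of the 9 ventricular genes, and 1 and 4 reached 10 CPM in a single class, which leaves 4 atrial and 3 ventricular genes that are neither. Of 7 artery and Notch genes, 3 were at least 2-fold higher and 1 lower, 3 of the 7 served in marker lists and 3 reached 10 CPM in a single class. Hey1, a Notch target of the atrium, was at 42.5 CPM in atrial-like and 3.00 CPM in ventricular-like cells, a ratio of 14.2 (12.1 at the lower bound), while its ventricular relative Hey2, a marker used here, had 4 UMIs in all atrial-like cells. Of 11 genes whose products bind COUP-TFs or share their DNA sites, 1 passed 2-fold, the corepressor Tle1 (16.6 against 5.85 CPM). The cofactor FOG2 (Zfpm2) was present in both, at 220 and 274 CPM. Of 3 retinoic acid genes with enough counts, the binding protein gene Crabp2 was higher in atrial-like cells, at 51.2 against 10.2 CPM. Markers of other cells were low but not absent: the 10 endothelial markers summed to 27.4 CPM in atrial-like cells (20.4 to 35.7 over libraries) and 18.2 in ventricular-like cells (12.4 to 23.6), with none at 0 in either class. The 6 posterior second heart field markers, which include the atrial gene Tbx5, summed to 415 (312 to 476) and 189 (175 to 203) CPM, with none at 0. Their part in the difference was not tested.

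Endothelium separated the receptors. Nr2f2 was at 228 CPM in vein-type vascular cells (186 cells), 148 CPM in endocardial-like cells (1402 cells) and 71.5 CPM in artery-type vascular cells (275 cells), while Nr2f1 stayed between 12.8 and 14.4 CPM in these 3 classes. Over libraries 1 to 6, Nr2f2 in vein-type cells was 187, 243, 295, 249, 216 and 205 CPM, and in artery-type cells 61.9, 79.5, 148, 72.6, 55.6 and 61.7 CPM. The groups did not overlap, though the share of all genes that separate in this way is not given here. The highest artery-type value came from library 3, with 18 artery-type and 15 vein-type cells. The ratio of vein-type to artery-type cells was 3.19 (2.93 to 3.47; 1.99 to 3.88 in single libraries, higher in 6 of 6). A level at least 2-fold higher in vein-type cells was found in 1.26% of 8709 genes, a level lower by 2-fold in 5.24% and either in 6.5%. Of these genes, 41 had a higher ratio than Nr2f2. For Nr2f1 the ratio was 1.08 (0.840 to 1.38), higher in 3 of 6 libraries and 1.61 (1.19 to 2.17) without library 5, whose artery-type cells had 27.5 CPM.

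The pooled level of Nr2f2 fell with the number of artery markers and rose with that of vein markers. In endothelium-like cells with 0, 1, 2, 3 and 4 of the artery markers Gja4, Gja5, Sox17 and Unc5b, it was at 236, 172, 155, 134 and 31.8 CPM. With 0 to 4 of the vein markers Aplnr, Flt4, Lyve1 and Stab2, it was at 104, 127, 197, 240 and 274 CPM, the last from 25 cells and 1 library with enough of them. These steps took all 2179 endothelium-like cells, of which 1402 were endocardial-like. Median UMIs per cell also rose, from 33029 at 0 vein markers to 54322 at 4. Libraries overlapped between neighbouring steps, with 120 to 512 CPM at 3 vein markers, but the 11.2 to 37.9 CPM of 5 libraries at 4 artery markers lay below the 115 to 186 CPM at 3. The share of all genes whose libraries separate between these 2 steps is not given here. For Nr2f2 the sharpest step was between 3 and 4 artery markers, where the share of cells with a Nr2f2 UMI was 69.25% (322 cells, median 42153 UMIs) and then 21.25% (160 cells, median 34040 UMIs). Nr2f1 ranged from 10.7 to 23.3 CPM over the same artery steps and from 13.0 to 17.5 over the vein steps. A Nr2f1 UMI was seen in 35.0% of vein-type, 26.25% of endocardial-like and 14.9% of artery-type cells, and in 5.38%, 5.85% and 5.09% after thinning, all above the 0.716% of erythroid-like cells.

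**Figure D3:**
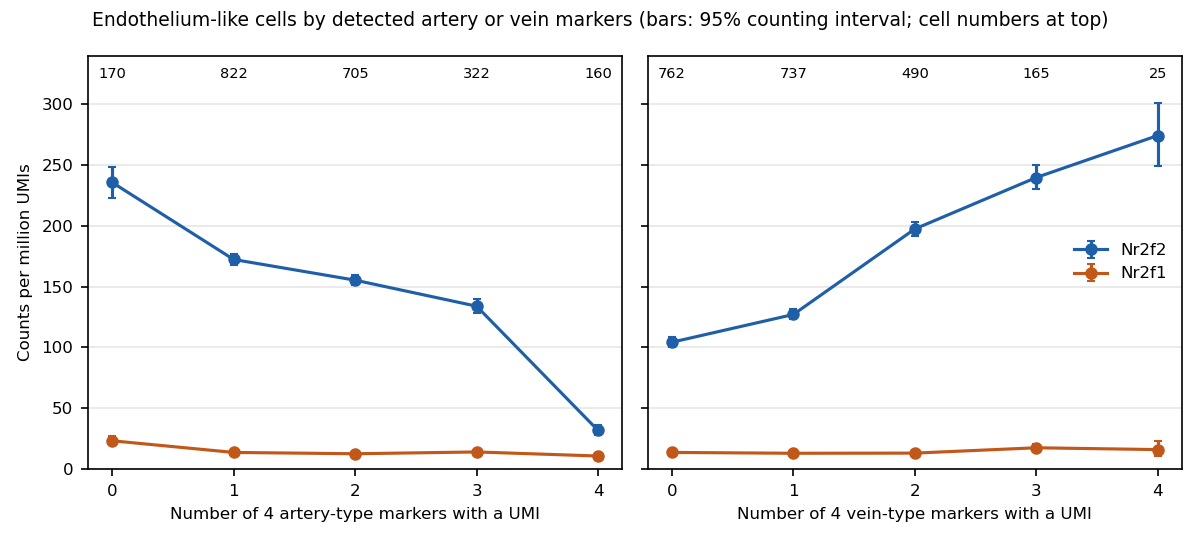
Nr2f2 and Nr2f1 in endothelium-like cells, in CPM, by the number of artery-type (left) or vein-type (right) markers with a UMI. Points pool all libraries, bars are 95% counting intervals and the numbers at the top are cells. Nr2f2 falls from 236 to 31.8 CPM over the artery markers and rises from 104 to 274 CPM over the vein markers, while Nr2f1 stays below 25 CPM.

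Vascular-like cells as a whole were close to endocardium for both receptors, but for Nr2f2 their level pools classes that differ. They took in vein-type cells at 228 CPM and artery-type cells at 71.5 CPM of Nr2f2. Also included were 52 mixed vascular cells, with equal numbers of both marker types, at 185 CPM. Nr2f2 was at 149 CPM in 513 vascular-like cells and 148 CPM in endocardial-like cells, a ratio of 1.01 (0.970 to 1.05), higher in 2 of 6 libraries. Nr2f1 gave 1.04 (0.908 to 1.20), also higher in 2 of 6. Of 8840 genes, 3.6% were at least 2-fold higher in vascular-like cells, 5.07% lower and 8.67% either. Set against endocardial-like cells, vein-type cells had 1.54 times as much Nr2f2 (1.47 to 1.62), higher in 6 of 6 libraries. In that comparison 3.48% of 8827 genes were at least 2-fold higher, 7.26% lower and 10.7% either.

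Of 12 artery and Notch genes, 11 were at least 2-fold lower in vein-type than in artery-type cells. That count was largely set by the choice of genes, since 5 of the 12 served in marker lists and 7 reached 10 CPM in artery-type cells alone, which leaves 4 that are neither. Hey1 (4.31 against 154 CPM), the Notch ligand gene Dll4 (6.41 against 63.5 CPM), the ephrin gene Efnb2 (45.0 against 179 CPM) and the semaphorin and VEGF co-receptor Nrp1 (171 against 413 CPM) did not choose the cells. Of 10 vein and lymphatic genes, 5 served in marker lists and 3 reached 10 CPM in vein-type cells alone. In all, 5 of the 10 were at least 2-fold higher, of which Aplnr, Lyve1 and Stab2 chose the cells. The other 2 were Nrp2 (211 against 67.8 CPM, higher in 5 of 6 libraries) and the lymphatic regulator Prox1 (21.8 against 9.78 CPM, 3 of 6). The endothelial factor gene Sox18 was at 120 and 163 CPM, lower in 6 of 6 libraries. The venous ephrin receptor Ephb4 was at 53.7 and 44.7 CPM, below 2-fold. Vein-type cells had the highest level of Zfpm2 of all classes, at 496 CPM, against 330 CPM in artery-type cells. Artery-type cells held more counts of mural markers, which summed to 200.1 CPM (136 to 254 over libraries, 1 of 8 at 0) against 16.4 in vein-type cells (9.10 to 25.4, 1 of 8 at 0). The neuron list summed to 161 CPM (44.1 to 201, none at 0) against 52.5 (21.6 to 78.6, 1 of 8 at 0). The part of these cells in the Nr2f2 difference was not tested. Mural-like cells themselves had 107 CPM of Nr2f2 and 145 CPM of Nr2f1.

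Classes of crest mesenchyme, the neural crest cells that fill the pharyngeal arches, held the 3 highest levels of Nr2f1, while crest mesenchyme-like cells as a whole were at 258 CPM. Classes were told apart by Hox genes, which mark the second and later arches, and by Dlx5, Dlx6 and Hand2, which mark the distal side of an arch. In second arch-like cells the pooled level of Nr2f1 was higher on the proximal than on the distal side, with 527 CPM in proximal (689 cells), 324 CPM in intermediate (1482 cells) and 236 CPM in distal cells (1180 cells). Nr2f2 was at 204, 195 and 162 CPM in the same order. In libraries 1 to 6, Nr2f1 was 343, 153, 328, 513, 558 and 583 CPM in proximal cells. In intermediate cells it was 335, 286, 339, 331, 307 and 333 CPM, and in distal cells 240, 218, 263, 234, 234 and 214 CPM. Intermediate cells were above distal cells in all 6 libraries, but in libraries 2 and 3 they were also above proximal cells. The level was higher in proximal cells in 5 libraries and lower in library 2, with 41 proximal cells. Libraries 4 to 6, with 176, 133 and 265 proximal cells, had the 3 highest levels, and libraries 1 to 3 had 58, 41 and 16 cells. The proximal to distal ratio was 2.23 (2.18 to 2.29) over all cells and 1.83 as the ratio of the medians over libraries. A level at least 2-fold higher in proximal cells was found in 1.31% of 8339 genes, a level lower by 2-fold in 2.24% and either in 3.55%, and 83 genes had a higher ratio than Nr2f1. For Nr2f2 the ratio was 1.26 (1.22 to 1.31), higher in 4 of 6 libraries.

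The pooled level of Nr2f1 was highest in cells without counts of the distal genes, but the libraries overlapped between the steps. In second arch-like cells with at most 1 Hand2 UMI, it was at 547 CPM with 0 UMIs of Dlx5 and Dlx6, 392 CPM with 1 and 347 CPM with 2, and it lay between 287 and 340 CPM with 3 or more. The libraries ranged from 148 to 590.2 CPM at 0 UMIs (5 libraries), from 161 to 495 CPM at 1 and from 320.5 to 372 CPM at 10 or more. Nr2f2 lay between 168 and 216 CPM over all these steps. Other arch genes were read along the same axis. Among 5 maxillary and dorsal arch genes, 2 were at least 2-fold higher in proximal cells and 0 lower, and 1 reached 10 CPM in proximal cells alone. The dorsal arch gene Pou3f3 was at 113 CPM in proximal and 1.20 CPM in distal cells (higher in 5 of 6 libraries). The 8 mandibular and ventral arch genes gave 7 at least 2-fold lower in proximal cells and 1 at least 2-fold higher. However, 4 of the 8 served in marker lists and 6 reached 10 CPM in distal cells alone, which leaves 2 that are neither. Of 11 genes for proteins that bind COUP-TFs or share their DNA sites, 3 were at least 2-fold lower in proximal cells: the zinc finger partners Bcl11a (13.1 against 67.0 CPM) and Bcl11b (17.4 against 60.4 CPM) and the retinoic acid receptor Rarb (3.91 against 12.2 CPM, lower in 4 of 6 libraries). Of 4 retinoic acid genes, 1 was at least 2-fold lower and 2 were at least 2-fold higher, the degrading enzyme gene Cyp26a1 (41.9 against 0.946 CPM) and Crabp1 (956 against 420.4 CPM). Rarb reached 10 CPM in distal cells alone and Cyp26a1 in proximal cells alone, so the minimum level fixed the direction of both.

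In the first arch, without Hox counts, the difference between the proximal and distal sides changed direction between libraries for both receptors. Maxillary-like cells were few (106) and shallow, with a median of 13102 UMIs against 22771 in 277 mandibular-like cells, and they are defined by few or no counts of Dlx5, Dlx6 and Hand2. The check gene Pou3f3 was at 60.8 CPM in them, against 8.46 in mandibular-like cells (higher in 3 of 5 libraries) and 3.78 in all other cells. The check gene Six2 was at 7.19 CPM, against 3.56 in mandibular-like cells (3 of 5) and 10.7 in all other cells. Nr2f1 was at 326 CPM in maxillary-like and 278 CPM in mandibular-like cells. The ratio of 1.17 (1.07 to 1.29) was above 1 in 2 of 5 libraries and fell to 0.998 without library 6 and 0.970 in thinned cells. For Nr2f2 the ratio was 0.774 (0.684 to 0.875), above 1 in 3 of 5 libraries. Neither receptor passed 2-fold, and of 8141 genes 0.639% were at least 2-fold higher in maxillary-like cells, 1.77% lower and 2.41% either. The other crest classes were at 234 CPM of Nr2f1 and 223 CPM of Nr2f2 (distal mandibular-like, 577 cells), 151 and 129 CPM (posterior arch-like, with group 3 Hox genes, 1830 cells) and 290.0 and 223 CPM (migratory crest and glia-like, 181 cells).

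Endoderm had high Nr2f2 and little Nr2f1, whereas crest mesenchyme-like cells had both, with Nr2f2 at 169 CPM. In 4 endoderm-like classes (2901 cells) Nr2f2 was at 287 to 436 CPM and Nr2f1 at 17.9 to 22.9 CPM. All endoderm-like cells together had 273 to 378 CPM of Nr2f2 and 12.8 to 31.5 CPM of Nr2f1 over the libraries. The Nr2f1 counts came from few cells: in pouch-like endoderm the 71 cells with the most held 66.1% of them, and most cells had none. Nr2f2 was seen in 91.7% of these cells, or 60.6% after thinning, against 20.4% and 8.04% for Nr2f1. Surface ectoderm-like cells (2553) lay in between, at 260 CPM of Nr2f2 and 49.3 CPM of Nr2f1.

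The mesenchyme next to the gut tube had the highest Nr2f2 of all classes, and its level differed by library. Foregut mesenchyme-like cells (781), which share the posterior second heart field list and express Tbx4, had 191, 231, 509, 572, 575 and 594 CPM of Nr2f2 in libraries 1 to 6. Nr2f1 in the same cells was 11.4, 36.9, 120, 150.3, 160 and 138 CPM. Libraries 1 and 2 were the low ones for both genes, with 25 and 31 cells against 150 to 208 in the others. The same 2 libraries were the lowest in posterior second heart field-like mesoderm (1855 cells), at 229 and 259 CPM of Nr2f2 against 407 to 443, and at 81.7 and 93.1 CPM of Nr2f1 against 159 to 180. Those 2 libraries had 197 and 198 such cells, against 205 to 571 in the others. The Hedgehog target Ptch1 was highest in foregut mesenchyme-like cells (233 CPM), as was Gli1 (18.1 CPM), and Shh was highest in Nkx2-1-positive endoderm-like cells (208 CPM), 1 of the classes with the most Nr2f2. Aldh1a2, which makes retinoic acid, was highest in posterior second heart field-like mesoderm (118 CPM) and at 103 CPM in foregut mesenchyme-like cells. Other retinoic acid genes were highest in other classes. These were migratory crest and glia-like cells for Crabp1 (2013 CPM) and cells like anterior second heart field or pharyngeal mesoderm for Rdh10 (56.6 CPM). Dhrs3 was highest in Foxa2-positive (28.0 CPM) and Cyp26b1 in pouch-like endoderm (26.95 CPM). A link of any of these genes with Nr2f2 was not tested.

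Among other mesoderm, the pooled level of Nr2f2 was the higher in 4 classes and that of Nr2f1 in paraxial mesoderm-like cells. Epicardium-like cells (1231) had 129 CPM of Nr2f2 and 37.8 CPM of Nr2f1. Cells like anterior second heart field or pharyngeal mesoderm (1451) had 146 and 121 CPM, branchiomeric muscle-like cells (485) 187 and 158 CPM, and cushion mesenchyme-like cells (503) 53.9 and 42.3 CPM. Paraxial mesoderm-like cells (382) had 143 CPM of Nr2f2 and 269 CPM of Nr2f1. In the latter class Nr2f1 was 76.8 and 129 CPM in libraries 1 and 3, with 23 and 26 cells, and 291 to 318 CPM in the other 4, with 42 to 181 cells. Nr2f2 was higher than Nr2f1 in libraries 1 and 3, at 113 and 132 CPM, so the balance was turned there. Single libraries also turned it in cushion mesenchyme-like cells (library 6, 34.6 CPM of Nr2f2 and 45.7 of Nr2f1). The same held for cells like anterior second heart field or pharyngeal mesoderm (library 4, 122.7 and 129.3 CPM). Neuron-like cells (205) had 196 CPM of Nr2f2 and 53.4 CPM of Nr2f1.

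The share of Nr2f1 in the UMIs of both genes describes this balance without a scale for gene length, since a class is compared only with other classes. It was 4.26% to 7.40% in the endoderm-like classes, 5.93% in vein-type and 7.97% in endocardial-like endothelium, 28.1% in posterior second heart field-like mesoderm, 32.2% in atrial-like and 36.3% in sinus venosus-like cardiomyocytes, 60.4% in all crest mesenchyme and 72.1% in its proximal second arch-like cells. Libraries ranged from 29.5% to 42.6% in atrial-like cells and from 7.05% to 9.09% in endocardial-like cells. UMIs of both receptors were found in 90.5% of atrial-like cells and 91.4% of proximal second arch-like cells. In thinned cells the shares were 28.1% and 49.1%, beside products of the genes' own shares of 27.4% and 48.3%. The share with both was further above the product in some classes with little of a receptor, at 1.28% against 0.269% in ventricular-like, 2.25% against 0.422% in outflow-like and 3.27% against 0.907% in artery-type cells, on 15, 10 and 9 cells, but not in all endoderm-like cells, at 4.45% against 4.29%. In pouch-like endoderm 19.9% of cells had both and 71.8% only Nr2f2.

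**Figure D4:**
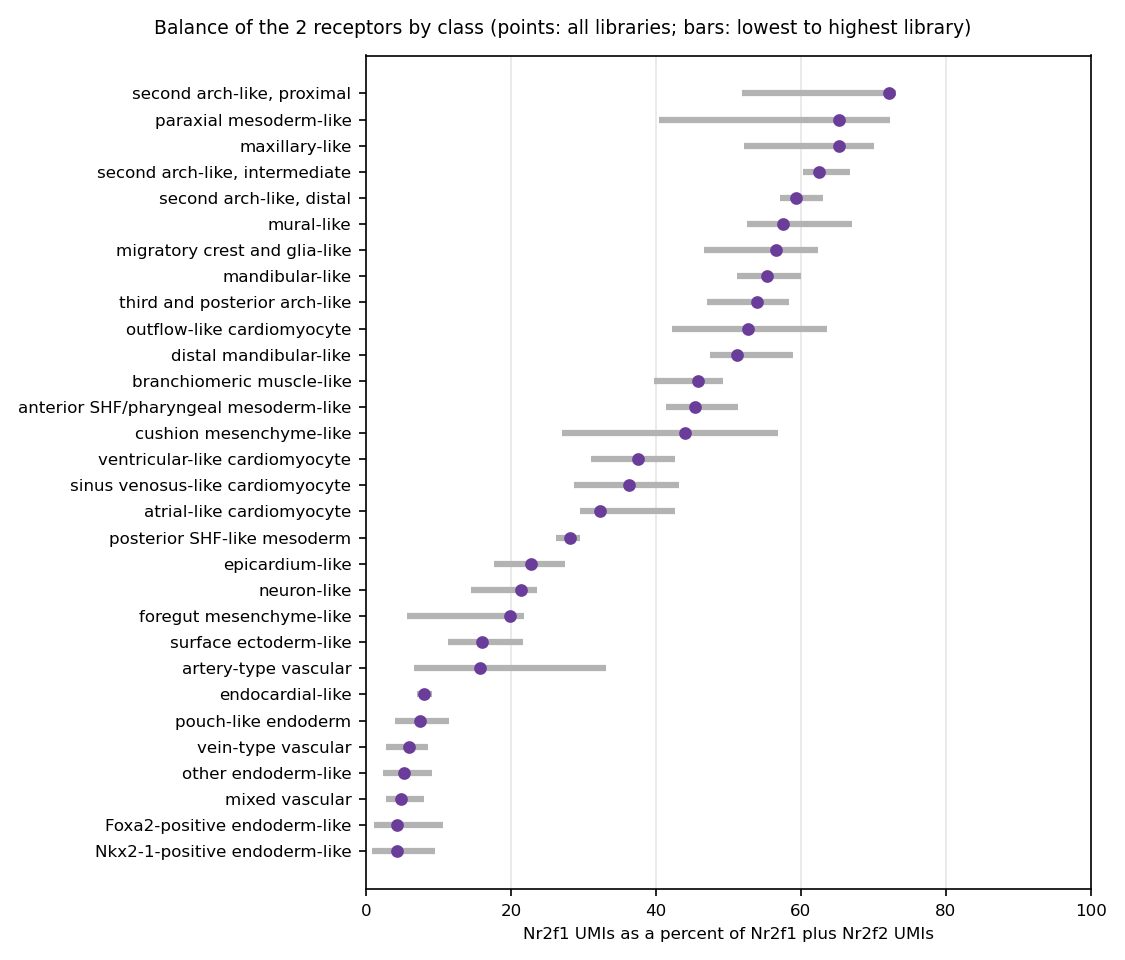
Nr2f1 UMIs as a percent of the UMIs of Nr2f1 and Nr2f2 together, by cell class, for the described classes other than blood. Points pool all libraries and bars run from the lowest to the highest library with at least 10 cells. The points of the endoderm-like, vein-type, endocardial-like and mixed vascular classes lie below 10%. Single libraries reach 10.6% in Foxa2-positive and 11.5% in pouch-like endoderm. Proximal second arch-like crest is highest at 72.1%.

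The genes whose levels over the 32 classes were most like each receptor's included its own neighbour on the opposite strand. The ranking took 12151 genes with at least 10 CPM in some class and left out all genes of the marker lists. In it A830082K12Rik ranked 1 for Nr2f1 (Pearson r of log2(CPM + 1) 0.98), and B130024G19Rik ranked 3 for Nr2f2 (r 0.87), values that describe classes sharing libraries. The other 7 nearest to Nr2f1 were Zfhx4, Farp2, Kctd15, Dixdc1, Bcat1, Dok6 and B230217C12Rik (r 0.85 to 0.90), and those nearest to Nr2f2 were Zfp664, Sestd1, Fnbp1l, Dbn1, Map2k6, Nrep and Pde7a (r 0.84 to 0.88). A830082K12Rik was at 16.7 CPM in atrial-like and 2.49 CPM in ventricular-like cells, a ratio of 6.71 (5.55 to 8.14; 6 of 6 libraries). B130024G19Rik was at 31.9 and 2.11 CPM, a ratio of 15.1 (12.6 to 18.3; 6 of 6). In endothelium B130024G19Rik was at 10.1 CPM in vein-type and 2.27 CPM in artery-type cells, a ratio of 4.43 (2.78 to 7.33; 6 of 6), on 91 and 23 UMIs. A830082K12Rik was at 6.74 CPM in vein-type and 3.06 CPM in artery-type cells, a ratio of 2.20 (1.41 to 3.51; 4 of 6), on 61 and 31 UMIs, whereas the interval of Nr2f1 there included 1. Each neighbour thus had the direction of its receptor between the heart muscle classes, and in vein-type against artery-type cells B130024G19Rik had that of Nr2f2.

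The neighbours also departed from the receptors. In vascular-like against endocardial-like cells the ratio was 0.731 (0.582 to 0.910) for A830082K12Rik and 0.733 (0.597 to 0.896) for B130024G19Rik, each higher in 1 of 6 libraries, where the receptors were near 1. Per 100 Nr2f2 UMIs, B130024G19Rik had 16.5 in ventricular-like, 15.5 in sinus venosus-like and 12.6 in atrial-like cardiomyocytes. It had 13.8 in migratory crest and glia-like cells, 11.6 in posterior second heart field-like mesoderm and 11.5 in foregut mesenchyme-like cells. The endoderm-like classes had 3.57 to 4.15. Lower values were found in paraxial mesoderm-like (3.555), artery-type (3.18), neuron-like (2.75) and mixed vascular cells (2.44). Per 100 Nr2f1 UMIs, A830082K12Rik had 9.86 in proximal second arch-like crest and 51.5 in endocardial-like cells. Annotated exons of the pairs share 643 bases at Nr2f2 and 123 bases at Nr2f1, all at least 9044 bases from the 3′ end of the receptor gene. Whether the counting used the strand of a read is not given in the sources used here, and without strand a read in shared bases cannot be assigned to 1 gene of a pair.

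**Figure D5:**
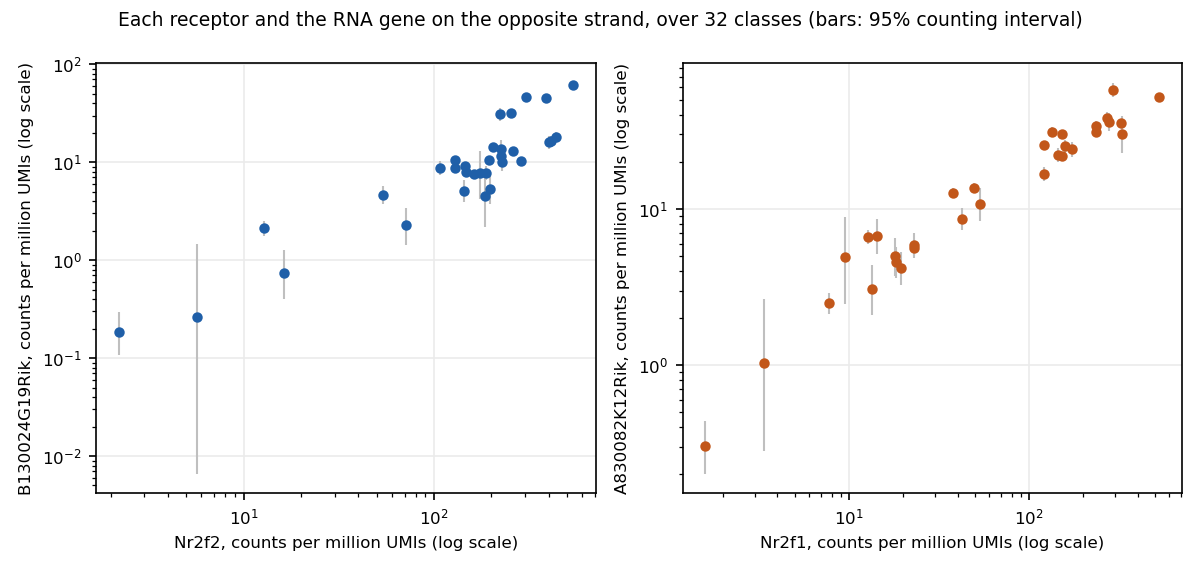
Level of each receptor (horizontal) and of the non-coding RNA gene on the opposite strand (vertical) in 32 cell classes, in CPM on log axes. Points pool all libraries and bars are 95% counting intervals of the non-coding RNA. Both pairs rise together, and the points of B130024G19Rik spread over a wider range at high Nr2f2.

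Among relatives of the receptors, Nr2f6, Nr2c1 and Nr2c2 passed 2-fold in none of the 7 comparisons, in which 2.41% to 10.7% of all genes with enough counts did. The remaining family member, Nr2f6, lay between 56.1 and 131 CPM in all classes but the blood ones, where it was at 3.04 CPM in erythroid-like and 19.7 CPM in myeloid-like cells. It was 1.29 times as high in atrial-like as in ventricular-like cells (72.4 against 56.1 CPM) and lower in vein-type than in artery-type cells (93.9 against 118 CPM, 0.798 times, lower in 6 of 6 libraries). Nr2f6 was 1.37 times as high in proximal as in distal second arch-like crest (6 of 6 libraries), the direction of Nr2f1. The testicular receptor gene Nr2c2 was 1.53 times as high in sinus venosus-like as in atrial-like cells (6 of 6), also the direction of Nr2f1. Hnf4a reached at most 2.88 CPM, in Foxa2-positive endoderm-like cells, and Nr2e1 at most 0.158 CPM, in neuron-like cells.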

How the data were processed

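Counts are as the authors deposited them: 1 matrix of whole UMI counts per gene and cell barcode, whose header names Cell Ranger 5.0.0. The submitters' processing notes also name CASAVA 1.8, Seurat 4 and the mm10 build. The labels' descriptions name a chromatin assay, but titles and kit name RNA, and the values were treated as 3′ RNA counts. The matrix covers 3 vehicle and 3 streptozotocin samples, and each library holds 200462921 to 248426458 UMIs.

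Cells with at least 2500 genes and at most 10% mitochondrial UMIs were kept. Classes came from marker lists with a minimum number of detected markers. These minimums, and the UMI limits of the crest classes (at most 1 as without, at least 2 as with), were set after marker counts were seen and before the receptors' levels were read. Many cells lie 1 marker below a minimum: 242 for the cardiomyocyte list (190 at it), 215 for the endothelial list (124) and 6787 for the crest list (4486). No doublet caller was run. Cells that passed lists of more than 1 broad type (such as mesenchyme and epithelium), or tied between lists, were left out. Within 1 broad type, a cell went to the list with the largest share of markers detected, and Myf5 took precedence for branchiomeric muscle. Heart muscle and endothelium-like cells were kept if they also passed the cushion, mural or second heart field lists, which share genes with them.

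CPM were computed from summed counts, with exact Poisson intervals at 95%, ratios with the conditional binomial interval and shares with exact binomial (Clopper-Pearson) intervals. UMIs are counted molecules, and intervals cover counting error only. Genes with at least 10 CPM in either class entered a comparison, and 2-fold was the call. The ratio code was tested on simulated data. The 2 receptors and all gene lists were chosen with earlier results of these data known. Comparisons of proximal with distal second arch, sinus venosus with atrial and vein with endocardial cells were added after seeing the data. Genes named are the receptors, members of 9 gene lists and the 8 genes most like each receptor over the classes, among genes in no marker list. The 2 opposite-strand neighbours and the Hedgehog genes Ptch1, Gli1 and Shh were described after their values were seen. Sequences and start windows are from RefSeq on GRCm38.p6, and gene models are from GENCODE M21. Alternatives were another cell filter, 1 more marker, thinned cells, other scaling, cells without shared barcodes or without the 8% with most UMIs, and each library left out. Python 3.11.15, NumPy 2.4.6, SciPy 1.17.1, pandas 2.3.3 and Matplotlib 3.10.9 were used.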

Additional observations from a re-analysis of the deposited data

How the results depend on the processing

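Of 256 alternative values, 198 stayed within counting error (1.5 times for a number of genes), 56 moved further and 2 changed direction, a term kept for ratios whose reported interval excludes 1. Counting all ratios, 15 lay on the other side of 1 from the reported one, and 13 of these belonged to ratios whose interval includes 1. The atrial to ventricular ratio of Nr2f1 was 14.1 with 1 more marker required, 11.8 in thinned cells, 19.96 without shared barcode sequences and 14.4 to 17.9 with each library left out. That of Nr2f2 was 16.7 in thinned cells, 22.9 without shared barcodes and 18.0 to 21.1 with each library left out. For vein-type against artery-type cells, Nr2f2 gave 3.71 with 1 more marker, 3.89 in thinned cells and 3.84 without the cells with most UMIs, and Nr2f1 gave 0.856 (without library 4) to 1.61 (without library 5). For vascular-like against endocardial-like cells, Nr2f1 gave 1.20 with 1 more marker, and Nr2f2 gave 0.905 with 1 more marker, 1.06 without shared barcodes and 0.954 as the ratio of medians over libraries. For maxillary-like against mandibular-like cells, Nr2f1 gave 1.36 with 1 more marker, changed direction in thinned cells (0.970) and without library 6 (0.998), and reached 1.33 without library 1, and Nr2f2 gave 0.971 in thinned cells. The cause of these changes was not tested. The highest class stayed proximal second arch-like for Nr2f1, at 542.8, 505.4, 685 and 428 CPM with 1 more marker, thinned cells, scaling without mitochondrial, hemoglobin and ribosomal protein genes, and the median over libraries, and 483 to 539.9 CPM with each library left out. It stayed foregut mesenchyme-like for Nr2f2, at 618 CPM with 1 more marker, 561 thinned, 549 without the cells with most UMIs, 677 under that scaling, and 517 to 551 CPM with each library left out. With all genes of at least 1 UMI, the genes past 2-fold rose from 396 to 6656 (atrial against ventricular), 766 to 7779 (vascular against endocardial), 566 to 6338 (vein against artery) and 196 to 5768 (maxillary against mandibular, 369 with 1 more marker). No file used here pairs a library with a sample, so that streptozotocin against vehicle and its replicate pairs were not run. Ratios of cell classes come from counts summed over all libraries, in which the classes have unequal numbers of cells. How many libraries showed a direction is given for the receptors and some other genes, and no paired test of classes over libraries was run.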

Other observations

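Endothelial cells that carried no artery marker had the most Nr2f1 of the artery steps, 23.3 CPM in 170 cells, against 10.7 CPM in the 160 cells with all 4, but the libraries overlapped (9.88 to 37.3 and 1.59 to 25.04 CPM). Over the endocardial markers Nr2f1 lay between 12.1 and 19.5 CPM and Nr2f2 between 142 and 189.9 CPM, with no order over the 5 steps. The Nr2f1 counts of artery-type cells were held by few cells, since 14 of the 275 cells had 77.8% of them. For Nr2f2 the same number of artery-type cells had 44.5%.

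In epicardium-like cells Nr2f1 was 28.7, 23.0, 34.9, 46.8, 61.1 and 56.3 CPM in libraries 1 to 6, each with at least 132 cells. In intermediate second arch-like crest, with at least 170 cells per library, the same gene stayed between 286 and 339 CPM. Cells that passed no marker list, 8841 in all, held 159 CPM of Nr2f1 and 219.8 CPM of Nr2f2, so that both receptors were also well expressed outside the classes described.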
